A study of Mus musculus with 6 samples.

Results

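The scavenger receptors described here were 10 genes, Msr1, Marco, Cd36, Scarb1, Scarb2, Cd68, Stab1, Olr1, Mrc1 and Cd163. They were taken by gene symbol, whatever their values, from a table of 25124 genes, and all 10 were found there. Sequencing libraries were made from poly(A) RNA of RAW264.7, a macrophage-like line derived from a mouse tumour induced by Abelson leukaemia virus. The M1 cells had been given lipopolysaccharide (LPS, a bacterial surface molecule sensed by Toll-like receptor 4) at 100 ng/ml and interferon-γ at 50 ng/ml, and the M0 cells neither. Each group held 3 libraries. Both groups came from a line made with a plasmid that codes for the Cas9 nuclease and carries no guide, as the comparison for a knockout of E4BP4. All cells grew in medium with 25 mM glucose at fewer than 15 passages. How long the treatment lasted is not stated in the sources. The labels do not say whether the replicates were grown as separate cultures, so p-values speak only for the spread among these 6 libraries, a spread that could come from handling alone.

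Scavenger receptors are membrane proteins of several unrelated structures that bind modified lipoproteins, polyanions, microbial surfaces and dying cells, and pass them to endosomes. Macrophages use them to take up oxidised and acetylated low-density lipoprotein (LDL), and the lipid that accumulates gives foam cells in atheroma. Class A members (Msr1, Marco) are trimers with collagen-like stems. The CD36 family (Cd36, Scarb1, Scarb2) has a transmembrane helix at each end and a tunnel through which lipid can pass. The others are a mucin-like endosomal glycoprotein (Cd68), a large hyaluronan-binding receptor (Stab1), lectins (Olr1, Mrc1) and the haemoglobin-haptoglobin receptor (Cd163).

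Reads in genes numbered 15615639 to 20283180 in a library. Levels are given in TPM, a read count adjusted for transcript length and for the library. At a length of 2000 bases 1 TPM was 26.5 to 34.4 reads. The listed TPM summed to 568081 to 572349 in an M1 library and 551257 to 555447 in an M0 library, not to a common total. All 10 macrophage markers examined were present at 1 TPM or more in at least 1 library, with a summed level of 3334 to 3373 TPM in M1 and 3486 to 3716 TPM in M0. Of these 10, by the test described below, 5 were higher and 4 lower on the TPM scale (18.7% and 61.5% of all tested genes). After the rescaling described there, 6 were higher and 2 lower (38.1% and 35.4%). Adgre1, which codes for the macrophage antigen F4/80, averaged 67.6 ± 1.13 TPM in M1 and 2.73 ± 0.505 TPM in M0 (mean ± SD, n = 3 in these and all later values), and the Fc receptor Fcgr1 139 ± 5.55 TPM in M1 and 40.2 ± 2.15 TPM in M0. The lysozyme gene Lyz2 averaged 683 ± 25.5 TPM in M1 and 1069 ± 78.3 TPM in M0, and the integrin Itgam 122 ± 9.82 TPM in M1 and 184 ± 5.61 TPM in M0. The summed markers of T, B and epithelial cells were at most 0.23 TPM in M1 and 0.303 TPM in M0. Neutrophil markers summed to 3.19 to 3.90 TPM in M1 and 4.51 to 5.85 TPM in M0, with 2 of the 5 at 0 in all 6 libraries, and S100a8 gave most of the sum at 3.39 ± 0.453 TPM in M1 and 5.29 ± 0.753 TPM in M0. Fibroblast, endothelial and dendritic cell markers each summed to 1.07 to 1.52 TPM in M1 and 0.562 to 2.09 TPM in M0. The part of such cells in the results was not tested.

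In M1 cells the class A receptors Msr1 and Marco were higher and Scarb1, Stab1 and Cd68 were lower on the TPM scale. Scarb2 was not called. Cd36, Olr1, Mrc1 and Cd163 stayed below 1 TPM in all 6 libraries and were not tested. The test was limma on log2(TPM + 1) over the 11297 genes that reached 1 TPM in at least 3 libraries, with Benjamini-Hochberg adjustment and calls under 0.05. The members called were thus 2 higher and 3 lower, in a fit that called 18.7% of all tested genes higher and 61.5% lower. Marco entered this fit through its M1 libraries alone, so no share over the tested members is read from it. The median log2 difference of all tested genes was -0.31 on the TPM scale and 0.02 after each library was rescaled by the median-of-ratios method, which called 38.1% of genes higher and 35.4% lower. After rescaling 3 members were higher (Msr1, Marco and Scarb2), 2 were lower (Scarb1 and Stab1), and Cd68 was no longer called. Below, the groups did not overlap even for Scarb2, which was not called on the TPM scale. The share of all genes without such overlap is not given. In bulk RNA, more cells with a transcript and more transcript per cell cannot be told apart.

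**Figure D1:**
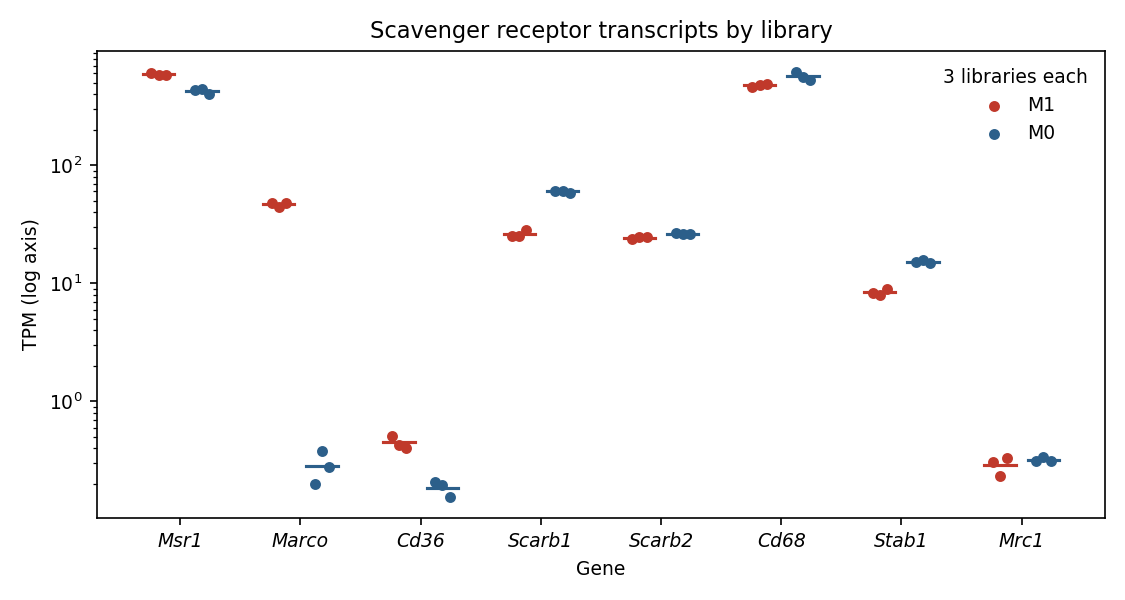
Level of 8 scavenger receptor transcripts in each library, in TPM on a log axis, with M1 left of M0 for each gene. Each point is a library, the line is the group mean, and Olr1 and Cd163 are left out because nearly all their values are 0. Marco sits at 44.5 to 48.1 TPM in M1 and 0.200 to 0.381 TPM in M0, while the Mrc1 points of both groups lie within 0.231 to 0.337 TPM.

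Msr1 (NM_001113326, chromosome 8, 39581700 to 39642678, minus strand, mm10) codes for scavenger receptor A, the main receptor for acetylated LDL in macrophages. It stood at 609, 584 and 584 TPM in M1 replicates 1 to 3, and at 435, 444 and 403 TPM in M0 replicates 1 to 3. Every M1 library lay above every M0 library, and the Msr1 log2 fold change was above that of 88.5% of the 11297 tested genes. The means were 592 ± 14.4 TPM in M1 and 427 ± 21.4 TPM in M0, a 1.39-fold difference, with a log2 fold change of 0.47 (SE 0.05, limma adjusted p = 3.5e-06) on the log2(TPM + 1) scale. After rescaling the log2 fold change was 0.84 (limma adjusted p = 2.6e-07), and the authors' deposited table gives 0.86 (adjusted p = 1.1e-72). That table counted Msr1 on another transcript, NM_031195. In the GENCODE annotation the protein of the first has 458 codons and that of the second 354, and the shorter form is known to lack the cysteine-rich domain at the C-terminus. Each deposited table gives values on 1 transcript per gene, so the isoforms were not compared. The reads counted, as well as the length, may change with the transcript.

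Marco (NM_010766, chromosome 1, 120474538 to 120505024, minus strand) codes for a class A receptor that binds bacteria and particles and is inducible in many macrophages. Its M1 libraries stood at 48.1, 44.5 and 48.1 TPM, and its M0 libraries at 0.200, 0.381 and 0.277 TPM. These values rest on 1538, 1461 and 1401 reads in M1 and on 6, 11 and 7 reads in M0. Marco was near the detection limit in M0 and well measured in M1, with no overlap between the groups. The means of 46.9 ± 2.04 TPM in M1 and 0.286 ± 0.0908 TPM in M0 differ 164-fold. The limma log2 fold change was 5.22 (SE 0.07, adjusted p = 1.5e-13), which the pseudocount of 1 TPM holds down: with 0.1 TPM it was 6.95, and over all alternatives the adjusted p ran from 1.1e-17 to 1.1e-09. The authors' deposited table gives 7.72. Because its M1 libraries alone brought Marco into the fit, its rank among the tested genes is not given.

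The upstream 250 bases of 3 members are shown because their transcripts differed in kind: Marco appeared in M1 and was almost missing from M0, Stab1 was lower in M1 on either scale, and Cd68 was abundant in both. The sequences are RefSeq's on GRCm38.p6, read 5′ to 3′ on the minus strand and ending at the base before the transcript start, at chr1:120505025-120505274 for Marco, chr14:31168642-31168891 for Stab1 and chr11:69666171-69666420 for Cd68. Capitals mark matches to GAGGAA, the core bound by the myeloid factor PU.1, and to TGANTCA, the AP-1 site.
Marco: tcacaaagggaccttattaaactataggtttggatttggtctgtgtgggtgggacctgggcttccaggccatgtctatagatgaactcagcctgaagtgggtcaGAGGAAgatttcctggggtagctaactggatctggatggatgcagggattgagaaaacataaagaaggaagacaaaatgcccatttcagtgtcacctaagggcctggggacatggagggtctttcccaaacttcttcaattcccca
Stab1: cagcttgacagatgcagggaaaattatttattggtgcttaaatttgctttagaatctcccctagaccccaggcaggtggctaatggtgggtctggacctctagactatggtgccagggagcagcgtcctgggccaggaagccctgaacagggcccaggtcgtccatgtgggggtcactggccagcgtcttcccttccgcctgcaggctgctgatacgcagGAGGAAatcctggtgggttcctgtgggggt
Cd68: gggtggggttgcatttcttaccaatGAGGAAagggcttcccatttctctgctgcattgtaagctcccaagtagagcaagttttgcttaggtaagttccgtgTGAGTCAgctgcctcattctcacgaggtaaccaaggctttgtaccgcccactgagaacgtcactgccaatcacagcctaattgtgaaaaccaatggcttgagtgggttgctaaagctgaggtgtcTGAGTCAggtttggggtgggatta

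The Marco window holds the PU.1 core at -146 to -141 from the start, and the Stab1 window holds it at -30 to -25. Cd68 carries the PU.1 core at -225 to -220 and AP-1 sites at -149 to -143 and -24 to -18. Promoter entries were matched for 8 members, without Msr1 and Scarb1, and 7 of the 8 begin at the deposited transcript's start, the exception being Cd36. Both strands were searched, and no matches overlapped in these windows. The PU.1 core was present in 5 of the 8 (Cd68, Marco, Mrc1, Olr1 and Stab1) and in 23.3% of 32851 promoter windows of the same length. The AP-1 site was in 2 (Cd68 and Olr1) and in 6.75% of all windows. None of the 8 held GAAANNGAA, the core of the interferon-stimulated response element found in 7.13% of windows, TTCNNNGAA, the gamma-activated site found in 7.02%, or CACGTG, the E-box bound by TFEB and related factors, found in 6.02%. Scarb2 held the antioxidant response core TGACNNNGC (10.2% of windows) and the kappaB consensus (3.90%), and Cd36 and Olr1 held the nuclear receptor site AGGTCA (14.0%). These matches are descriptions of letters, and binding was not measured.

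Scarb1 (NM_016741, chromosome 5, 125277087 to 125341094, minus strand) codes for SR-B1, the receptor that takes up cholesteryl ester from high-density lipoprotein (HDL) and moves cholesterol both ways across the plasma membrane. The M1 libraries stood at 25.1, 25.4 and 28.4 TPM, and the M0 libraries at 60.9, 61.0 and 58.6 TPM. Scarb1 was lower in all 3 M1 libraries than in any M0 library. The means were 26.3 ± 1.80 TPM in M1 and 60.2 ± 1.34 TPM in M0, which puts M0 2.29-fold above M1. The log2 fold change was -1.17 (SE 0.06, limma adjusted p = 4.8e-09) and after rescaling -0.81 (limma adjusted p = 1.8e-07), with -0.83 in the authors' deposited table. It was the largest decrease among the 6 tested members, and 906 of the 11297 genes fell further. Pdzk1, the adaptor that holds SR-B1 at the membrane in liver, averaged 1.80 ± 0.344 TPM in M1 and 2.57 ± 0.408 TPM in M0. Its groups overlapped. Its log2 fold change of -0.35 was called on the TPM scale (limma adjusted p = 0.013), and the -0.10 after rescaling was not (adjusted p = 0.41).

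Scarb2 (NM_007644, chromosome 5, 92441311 to 92505657, minus strand) codes for LIMP-2, an abundant protein of the lysosomal membrane. It stood at 23.7, 24.5 and 24.8 TPM in M1, and at 26.6, 26.3 and 26.2 TPM in M0. The M1 values were all below the M0 values, by a small margin. The means were 24.3 ± 0.56 TPM in M1 and 26.4 ± 0.213 TPM in M0, with a log2 fold change of -0.11 (SE 0.05, limma adjusted p = 0.056) that was not called on the TPM scale and turned to 0.24, called higher, after rescaling (limma adjusted p = 0.00073). The authors' deposited table gives 0.29 (adjusted p = 2.5e-05). Without M1 replicate 3 the TPM-scale value was -0.12 and passed (limma adjusted p = 0.048), and over all alternatives the adjusted p ran from 0.00029 to 0.17. The direction of Scarb2 therefore depends on the scaling.

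Cd36 (NM_001159556, chromosome 5, 17781690 to 17849792, minus strand) codes for the fatty acid translocase, a receptor for oxidised LDL and thrombospondin. It stood at 0.511, 0.430 and 0.406 TPM in M1, from 29, 25 and 21 reads, and at 0.207, 0.195 and 0.156 TPM in M0, from 11, 10 and 7 reads. All 3 M1 libraries lay above the M0 libraries, at levels below the 1 TPM needed for the test. The 75 reads in M1 and 28 in M0 give a ratio of 2.40 on the TPM scale (exact 95% interval 1.54 to 3.85) and of 3.09 after rescaling (1.98 to 4.96). These intervals cover counting error only. Fitted without the level filter, limma gave a log2 fold change of 0.29 (adjusted p = 0.0050), and the authors' deposited table gives 1.65 (adjusted p = 0.0012). Over both alternatives that tested Cd36 the limma adjusted p lay between 3.6e-05 and 0.0050. Its nuclear receptor activator Pparg was also low, with 2 reads in M1 and 33 in M0 over the 3 libraries of each group, or 0.0223 ± 0.0387 TPM in M1 and 0.426 ± 0.0391 TPM in M0.

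Stab1 (NM_138672, chromosome 14, 31139017 to 31168641, minus strand) codes for stabilin-1, an endocytic receptor of macrophages and sinusoidal endothelium that clears modified LDL and extracellular matrix fragments. It stood at 8.36, 8.02 and 9.03 TPM in M1, and at 15.2, 15.6 and 14.9 TPM in M0. No M1 library reached the M0 range. The means were 8.47 ± 0.513 TPM in M1 and 15.2 ± 0.360 TPM in M0, 1.80-fold higher in M0. The log2 fold change was -0.78 (SE 0.06, limma adjusted p = 4.3e-07) and after rescaling -0.44 (limma adjusted p = 4.2e-05), with -0.49 in the authors' deposited table. The last 108 bases of Stab1 overlap the end of Nt5dc2 on the other strand, and the sources do not say whether counting used the strand. Nt5dc2 stood at 44.2 ± 3.05 TPM in M1 and 106 ± 3.66 TPM in M0, and its part in the Stab1 difference was not tested.

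Cd68 (NM_001291058, chromosome 11, 69664213 to 69666170, minus strand) codes for macrosialin, a heavily glycosylated endosomal protein used as a macrophage marker. It stood at 457, 481 and 485 TPM in M1, and at 617, 562 and 525 TPM in M0. The M0 libraries were the more scattered, and the groups did not overlap. The means were 474 ± 15.0 TPM in M1 and 568 ± 46.6 TPM in M0. The log2 fold change of -0.26 (SE 0.06, limma adjusted p = 0.0019) was called lower on the TPM scale, but after rescaling it was 0.11 and not called (limma adjusted p = 0.17), and the authors' deposited table gives 0.10 (adjusted p = 0.16). Over all alternatives the limma adjusted p of Cd68 ran from 0.00089 to 0.17. On the TPM scale its log2 fold change exceeded that of 54.4% of tested genes, close to the middle.

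**Figure D2:**
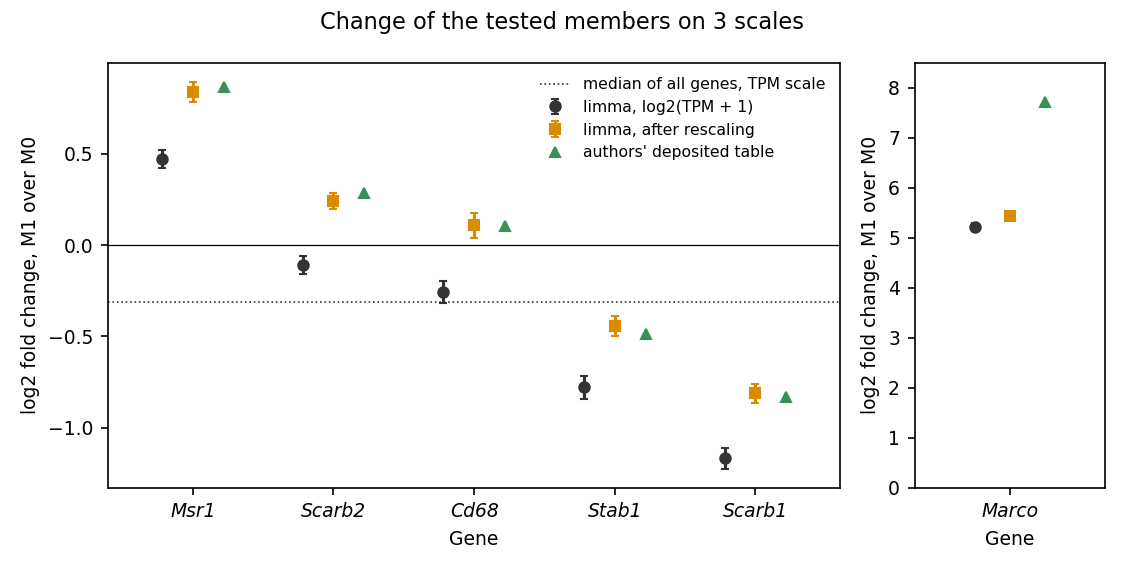
Log2 fold change of M1 over M0 for the 6 tested members, with Marco in its own panel because of its size. Circles are limma on log2(TPM + 1), squares are limma after rescaling, both with bars of 1 SE, and triangles are the authors' deposited values. Scarb2 and Cd68 lie below 0 on the TPM scale and above 0 on the other scales, and the dotted line at -0.31 is the median of all tested genes on the TPM scale.

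The remaining members were at or near the detection limit. Mrc1 (NM_008625, chromosome 2, 14229414 to 14332023, plus strand) codes for the mannose receptor CD206, widely used as a marker of alternatively activated macrophages. It stood at 0.304, 0.231 and 0.334 TPM in M1 and at 0.312, 0.337 and 0.314 TPM in M0. The groups overlapped, and each gave 75 reads in total. The ratio was 0.90 (exact 95% interval 0.64 to 1.25) on the TPM scale and 1.15 (0.83 to 1.61) after rescaling. Both intervals include no difference between the groups and cover counting error only. Ratios within them cannot be told apart at this depth. The authors' deposited table gives a log2 fold change of 0.17 (adjusted p = 0.74). Olr1 (NM_001301096, chromosome 6, 129485248 to 129507165, minus strand), which codes for the oxidised LDL receptor LOX-1, had 1 read over the M1 libraries and 0 over the M0 libraries. A count of 0 in M0 allows up to 3 reads, or 0.0231 TPM. Cd163 (NM_053094, chromosome 6, 124304651 to 124330527, plus strand) had 0 of 58689070 reads in M1 and 0 of 51831153 in M0, which allows a level of up to 0.0139 TPM in M1 and 0.0155 TPM in M0.

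Ordered by mean TPM, the M1 cells ran Msr1, Cd68, Marco, Scarb1, Scarb2, Stab1, Cd36, Mrc1, Olr1 and Cd163. The values of neighbours in that order did not overlap, apart from those of Olr1 and Cd163. The M0 cells ran Cd68, Msr1, Scarb1, Scarb2, Stab1, Mrc1, Marco, Cd36, Olr1 and Cd163. There the values of Marco overlapped those of both Mrc1 and Cd36, and Olr1 and Cd163 were both listed at 0. The order depends on the transcripts and lengths used. With the values and lengths of the second deposited table, M1 ran Cd68, Msr1, Scarb2, Marco, Scarb1 and Stab1. M0 then ran Cd68, Msr1, Scarb1, Scarb2, Stab1 and Marco. Summed over the 10 genes the level was 1174 ± 6.05 TPM in M1 and 1098 ± 64.3 TPM in M0.

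A share of that sum, or a ratio of members within a library, does not move with the scaling of the library. Msr1 made up 50.5% ± 1.3 of the summed TPM in M1 and 39% ± 1.22 in M0. Cd68 made up 40.4% ± 1.23 in M1 and 51.7% ± 1.52 in M0. Both shares rest on the transcript to which Msr1 was assigned, of 1455 bases here and of 3626 bases in the authors' second deposited table. With that table's values taken as log2 of a linear quantity and divided by its own lengths, an alternative chosen after seeing the data, Msr1 made up 38.8% ± 1.13 of the 6 tested members in M1 and 28% ± 1.14 in M0. The shift between groups was thus 10.7 points in place of 11.5, and without Cd68 in the TPM sum it was 4.10 points. The Msr1 to Cd68 ratio was 1.33, 1.22 and 1.20 in the M1 libraries and 0.704, 0.790 and 0.769 in the M0 libraries, 1.66-fold apart. With the second table's values and lengths it was 0.844, 0.773 and 0.769 in M1 and 0.438, 0.493 and 0.492 in M0, 1.68-fold apart. Msr1 thus stood above Cd68 in M1 on the TPM table alone. Marco took 4.0% ± 0.159 of the sum in M1 and 0.0262% ± 0.00853 in M0. Scarb1 took 2.24% ± 0.143 in M1 and 5.49% ± 0.215 in M0. Its ratio to Scarb2, a gene of the same family, was 1.06, 1.04 and 1.15 in M1 and 2.29, 2.32 and 2.24 in M0. With the second table's values and lengths, 2087 bases in place of 4707 for Scarb2, that ratio was 0.592, 0.582 and 0.657 in M1. In M0 it was then 1.29, 1.33 and 1.26, so Scarb1 stood above Scarb2 in M1 on the TPM table alone. Stab1 took 0.722% ± 0.0399 in M1 and 1.39% ± 0.0717 in M0. None of these shares or ratios overlapped between groups, a separation also seen in the TPM of genes outside the family. With 3 libraries against 3 an exact permutation test cannot go below p = 0.10, so no test was made on them.

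**Figure D3:**
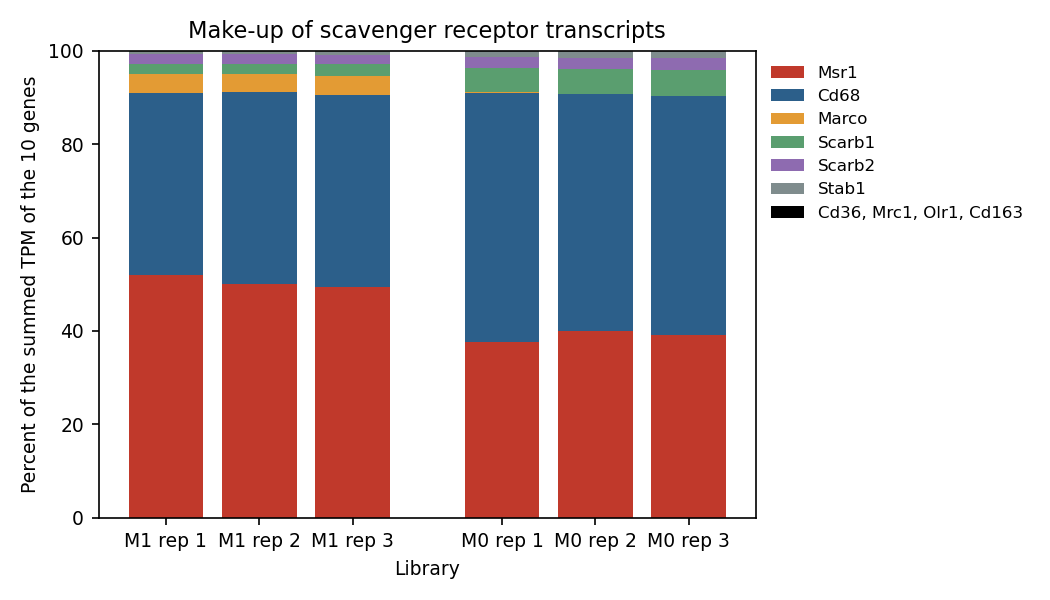
Make-up of the summed TPM of the 10 genes in each library, in percent, with the M1 libraries left of the M0 libraries. Msr1 forms 49.5% to 52.0% of each M1 bar and 37.6% to 40.0% of each M0 bar, and Marco forms 3.81% to 4.10% of each M1 bar and at most 0.0343% of an M0 bar.

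Patterns over the 6 libraries were compared by the root mean square difference in centred log2(TPM + 1). Predicted genes, small RNAs and any symbol that starts with Rn were passed over. Of the other tested genes, Il6, Ptgs2 and Slamf7 came nearest to Marco. Il6, an inflammatory cytokine, differed by 0.0472 and averaged 37.0 ± 1.69 TPM in M1 and 0.0417 ± 0.0364 TPM in M0. Ptgs2, the inducible cyclooxygenase, differed by 0.0930 and averaged 508 ± 22 TPM in M1 and 11.1 ± 0.638 TPM in M0. Slamf7, a self-ligand receptor of the SLAM family, differed by 0.102 and averaged 41.5 ± 3.8 TPM in M1 and 0.116 ± 0.0445 TPM in M0. Nearest to Scarb1 were Gmip (0.0192), Mbnl1 (0.0273) and Cacna1a (0.0313). Gmip, a RhoA-directed GTPase-activating protein, averaged 13.9 ± 0.829 TPM in M1 and 31.9 ± 0.498 TPM in M0. Mbnl1, a splicing regulator, averaged 128 ± 6.55 TPM in M1 and 289 ± 6.36 TPM in M0, and Cacna1a, a calcium channel subunit, averaged 10.8 ± 0.737 TPM in M1 and 25.5 ± 0.963 TPM in M0. The measure takes in the size of the difference between the 2 groups as well as the pattern among the 6 libraries. Like Marco, Il6 and Slamf7 were below 1 TPM in M0 and entered the fit through their M1 libraries alone. With the pseudocount of 1 TPM, their nearness to Marco rests mainly on similar M1 levels. Shared regulation was not tested.

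Another 20 scavenger receptor genes were listed, of which 9 were tested. On the TPM scale 3 were higher and 4 lower (18.7% and 61.5% of all tested genes). After rescaling 5 were higher and 4 lower (38.1% and 35.4%). The median log2 fold change of the 9 before rescaling was 0.03 and after it 0.38. Cxcl16, a membrane-bound chemokine that also binds oxidised LDL as SR-PSOX, averaged 556 ± 20.8 TPM in M1 and 125 ± 0.868 TPM in M0. Lgals3bp, a secreted protein with a scavenger receptor cysteine-rich domain, averaged 274 ± 8.25 TPM in M1 and 96.9 ± 0.562 TPM in M0. Colec12, a class A receptor with a lectin domain, was lower at 129 ± 4.0 TPM in M1 and 219 ± 4.68 TPM in M0. Scarf2, of the endothelial class F, was lower at 3.94 ± 0.184 TPM in M1 and 9.49 ± 0.124 TPM in M0. The largest limma adjusted p of these 4 genes was 3.3e-08, and each kept its direction after rescaling. Cd14, the LPS co-receptor that also binds dying cells, stood at 650 ± 7.96 TPM in M1 and 637 ± 5.66 TPM in M0 and was called higher only after rescaling, at 0.39 on the log2 scale.

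Co-receptors, adaptors and kinases that work with scavenger receptors numbered 18, of which 17 were tested, with 10 higher and 7 lower on the TPM scale (18.7% and 61.5% of all genes) and 10 and 5 after rescaling (38.1% and 35.4%). Src entered through its M1 libraries alone. Their median log2 fold change before rescaling was 0.22 and after it 0.58. The Toll-like receptors that pair with CD36 at the membrane split. Tlr2 was higher, at 311 ± 23.4 TPM in M1 and 33.7 ± 0.695 TPM in M0, and so was Tlr6, at 8.87 ± 1.18 TPM in M1 and 5.64 ± 0.387 TPM in M0. Tlr4, the LPS receptor, was lower, at 7.18 ± 0.425 TPM in M1 and 26.6 ± 1.68 TPM in M0. The kinase Src averaged 5.89 ± 0.270 TPM in M1 and 0.243 ± 0.0531 TPM in M0, while the tetraspanin Cd81 averaged 145 ± 3.53 TPM in M1 and 344 ± 11.9 TPM in M0. The limma adjusted p of Tlr6 was 0.00013, and the other 4 were at or below 7.1e-10. All 5 kept their direction after rescaling.

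Of 16 transcription factors tied to scavenger receptor genes, 15 were tested. On the TPM scale 5 were higher and 7 lower (18.7% and 61.5% of all tested genes). After rescaling 8 were higher and 6 lower (38.1% and 35.4%). Spi1, which codes for PU.1, averaged 305 ± 5.36 TPM in M1 and 201 ± 8.58 TPM in M0. Maf, which represses and activates macrophage genes through its own response element, averaged 60.8 ± 0.681 TPM in M1 and 26.0 ± 0.494 TPM in M0. Nfe2l2, which codes for NRF2, a known activator of Marco, averaged 141 ± 9.18 TPM in M1 and 106 ± 1.37 TPM in M0. The lysosomal regulator Tfeb averaged 2.37 ± 0.0990 TPM in M1 and 16.9 ± 0.389 TPM in M0, and Rxra, the partner of nuclear receptors such as PPARγ and LXR, averaged 2.25 ± 0.231 TPM in M1 and 11.1 ± 0.566 TPM in M0. These 5 differences were called (limma adjusted p of 2.0e-05 for Nfe2l2 and at most 2.5e-07 for the rest) and held their direction after rescaling. Ets2, which acts on the Msr1 promoter, stood at 85.3 ± 6.06 TPM in M1 and 85.4 ± 3.36 TPM in M0, with no call on the TPM scale and a log2 fold change of 0.36, called higher, after rescaling.

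Genes that handle lipid after uptake numbered 15, and 14 were tested. On the TPM scale 4 were higher and 9 lower (18.7% and 61.5% of all tested genes). After rescaling 5 were higher and 7 lower (38.1% and 35.4%). The median log2 fold change of the 14 before rescaling was -0.49 and after it -0.19. Acsl1, which activates fatty acids, averaged 236 ± 15.9 TPM in M1 and 29.5 ± 2.64 TPM in M0, and Npc2, which moves cholesterol out of lysosomes, averaged 234 ± 4.74 TPM in M1 and 165 ± 8.02 TPM in M0. Abca1, which exports cholesterol to lipid-poor apolipoprotein, was lower at 6.09 ± 0.855 TPM in M1 and 27.5 ± 2.57 TPM in M0. Lpl, the lipase that frees fatty acids from lipoproteins, was lower at 309 ± 8.98 TPM in M1 and 571 ± 10.8 TPM in M0. All 4 were called, with limma adjusted p at most 1.4e-06, and kept their direction after rescaling. Abcg1, which exports cholesterol to HDL, was not called, at 47.1 ± 3.34 TPM in M1 and 43.2 ± 2.45 TPM in M0 (limma adjusted p = 0.092), and was called higher after rescaling at 0.48.

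The late endosome and lysosome membrane list, the setting of LIMP-2 and macrosialin, held 14 genes, of which 12 were tested. On the TPM scale 3 were higher and 7 lower, and after rescaling 7 were higher and 2 lower. Over all tested genes the calls moved in the same way, with 18.7% higher and 61.5% lower before rescaling and 38.1% and 35.4% after it. Lamp2 averaged 518 ± 9.60 TPM in M1 and 377 ± 20.6 TPM in M0, and Cln3 averaged 26.4 ± 0.949 TPM in M1 and 19.1 ± 0.0883 TPM in M0. Ctns, the cystine exporter, averaged 4.78 ± 0.318 TPM in M1 and 11 ± 0.981 TPM in M0, and Sidt2 averaged 12.0 ± 0.857 TPM in M1 and 18.5 ± 0.652 TPM in M0. These 4 were called with limma adjusted p at most 9.9e-06 and held their direction after rescaling. Gpnmb, at 459 ± 9.43 TPM in M1 and 469 ± 14.1 TPM in M0, was not called on the TPM scale and was called higher after rescaling, at 0.33.

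Among 10 genes of haemoglobin and haem handling, the setting of Cd163, 8 were tested. On the TPM scale 1 was higher and 6 lower (18.7% and 61.5% of all tested genes). After rescaling 2 were higher and 5 lower (38.1% and 35.4%). Without M1 replicate 3, 2 were higher on the TPM scale. Fth1, the heavy chain of the iron store ferritin, averaged 7203 ± 101 TPM in M1 and 4031 ± 98.1 TPM in M0. Hmox1, the haem-degrading enzyme, averaged 37.1 ± 2.59 TPM in M1 and 115 ± 3.96 TPM in M0. Slc48a1, which moves haem out of the phagolysosome, averaged 25.4 ± 0.375 TPM in M1 and 65.7 ± 2.11 TPM in M0. These 3 were called (limma adjusted p at most 9.8e-09) in the same direction on both scales. Blvrb stood at 158 ± 11.3 TPM in M1 and 145 ± 3.15 TPM in M0 and was called higher after rescaling but not before (limma adjusted p = 0.052).

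Of 12 markers of alternative activation, the state of which Mrc1 and Cd163 are standard markers, 5 were tested. On the TPM scale 1 was higher and 4 lower (18.7% and 61.5% of all tested genes). After rescaling 1 was higher and 3 lower (38.1% and 35.4%). With no filter on level 4 were higher and 3 lower, so the balance rests on the filter. That fit called 2383 of 19232 genes higher and 7485 lower. The 7 markers added without the filter stayed below 1 TPM in every library. Il10, among the 4 lower with the filter, was tested through its M0 libraries alone. Il4ra, the interleukin-4 receptor chain, averaged 19.0 ± 0.228 TPM in M1 and 4.14 ± 0.227 TPM in M0. The galactose lectins Clec10a and Mgl2 were lower. Clec10a averaged 30.0 ± 0.252 TPM in M1 and 75.1 ± 5.08 TPM in M0, and Mgl2 averaged 17.9 ± 0.313 TPM in M1 and 44.4 ± 4.14 TPM in M0. The largest limma adjusted p of these 3 was 1.0e-08, and each kept its direction after rescaling. These lectins are close paralogs, so reads may be split between them uncertainly.

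**Figure D4:**
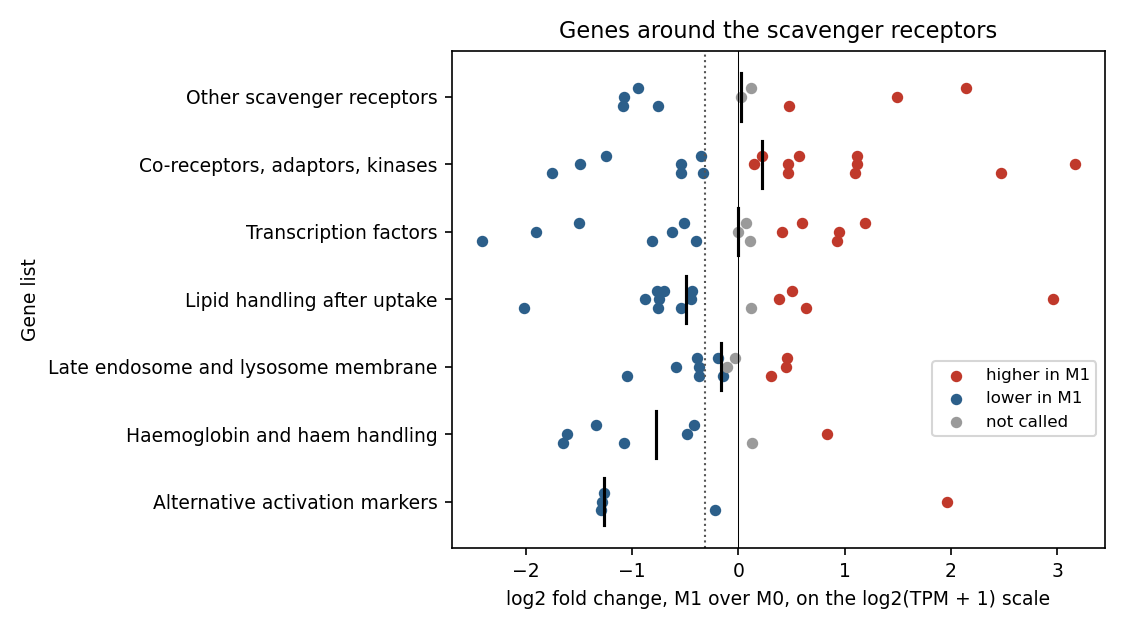
Log2 fold change of M1 over M0 on the log2(TPM + 1) scale for the tested genes of 7 lists around the scavenger receptors. Each point is a gene, coloured by its limma call, short vertical bars are list medians, the solid line is 0 and the dotted line is the median of all tested genes at -0.31. The alternative activation median lies lowest at -1.26 and the co-receptor median highest at 0.22, and 3 of the 7 list medians lie below the dotted line.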

How the data were processed

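RNA of 6 libraries was analysed, 3 M1 and 3 M0, grouped by their labels. The authors deposited TPM values for 25124 genes, per the file headers, with 1 RefSeq transcript per symbol. They also deposited log2 values (transform not stated) with log2 fold changes, p-values and adjusted p-values for 24421 genes. The tables use the same transcript for 7 of the 10 members, Msr1, Cd36 and Olr1 being the exceptions. Scarb2, under the same transcript, is listed at 4707 bases in the TPM table and 2087 in the second. STAR 2.7.5a, HOMER 4.11.1, bcl2fastq, DESeq2 and the build mm10 are named in the submitters' processing notes, without their roles. The sources do not state how counting used the strand.

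Because the values are TPM and not raw counts, limma 3.58.1 in R 4.3.3 (trend and robust empirical Bayes, group as the only term) was fitted to log2(TPM + 1). Genes needed 1 TPM or more in at least 3 libraries, and p-values were adjusted by Benjamini-Hochberg over all 11297 tested. Reads were recovered as whole multiples of TPM times length within 0.1 of a whole number, for 100% of the values checked, and amount to 83.5% to 86.7% of the header totals. They give the precision of low values, and intervals cover counting error only. Gene coordinates were taken from the deposited TPM table. Alternatives were median-of-ratios rescaling, a pseudocount of 0.1, no filter, a filter on the mean, the second table, a replicate block and leaving out each library. Within groups, each pair of libraries differed beyond sampling noise, with chi-square divided by its degrees of freedom at 1.55 to 7.90, and each library counted once. The procedure was tested on simulated data in which a small part of the genes changed, up and down alike. The dependence on scaling was not covered by it.

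The members and gene lists were chosen with earlier results of these data known. All members are named. From each list the text names up to 2 genes higher and 2 lower with the smallest p, the most abundant tested gene not called, and direct partners of members, apart from a partner not reported here. Nt5dc2 and Il10 were named after their values were seen. Near-identical copies and overlapping genes may share reads.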

Additional observations from a re-analysis of the deposited data

How the results depend on the processing

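Of 344 values recomputed under an alternative, 312 were stable: tested values kept direction and call, counts stayed within 1.5 times, and other values moved by less than the spread between replicates or, as Mrc1 did at 0.08 in the second table, changed sign without a call. Of the other 32, 11 came with rescaling and 12 with the second table, which also differs in its transform, in some transcripts and in the 18744 genes tested. Rescaling gave 4305 genes higher and 4002 lower, and the second deposited table gave 4650 and 4473, against 2111 and 6944 on the TPM scale. Scarb2 turned to 0.24 after rescaling and 0.28 in the second table (log2, M1 over M0), and Cd68 turned to 0.11 in both. Leaving out a library moved Scarb2 between -0.12 and -0.093. The second table called 4 members higher, Cd36 among them, and 2 lower. Of its 18744 genes, taken with no filter on level, it called 4650 higher and 4473 lower. Under rescaling and in the second table, the counts of genes higher were 5 and 6 for other scavenger receptors, 8 and 8 for transcription factors, 7 and 7 for late endosome and lysosome membrane (2 and 2 lower), and 2 and 2 for haem handling. For haem handling it was 2 with a replicate block and 1 to 2 when a library was left out. Alternative activation had 4 higher with no filter, where 2383 of 19232 genes were higher, and 4 in the second table. Of the members below 1 TPM, Cd36 gave 0.94 with a pseudocount of 0.1, 0.29 with no filter, 0.37 after rescaling and 0.67 in the second table, Olr1 gave 0.10 with a pseudocount of 0.1, and Mrc1 gave -0.12 with that pseudocount and 0.049 after rescaling. Without Cd68 in the sum, the Msr1 share differed by 4.10 percentage points in place of 11.5. With all members in the sum it differed by 10.8 to 12.1 points when a library was left out. With the values and lengths of the second table it differed by 10.7, an alternative chosen after seeing the data. Apart from the scale itself, the fewer genes in the sum without Cd68 and the change in filter or pseudocount, the cause was not tested. Libraries with the same number did not deviate together (correlations 0.07, -0.08 and 0.04), so the numbers were not taken as pairs; the replicate block gave 2143 genes higher and 7016 lower and changed no member's call. Depth limits Cd36, Mrc1, Olr1, Cd163 and the M0 level of Marco.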
